A study of Mus musculus with 4 samples.

Results

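Macrophages labelled as Pparg knockouts (KO) were compared with macrophages labelled as wild type (WT) for the transcripts of 9 genes of cytokine signalling. The 9 were the suppressors of cytokine signalling Socs1, Socs2, Socs3 and Cish, the transcription factors Stat3, Stat5a, Stat5b and Stat6, and Il4ra, the receptor chain that binds interleukin-4. The members were every probe set with values that the platform annotation assigns to these genes. That gave 12 of the 10649 probe sets with values, covering all 9 of these genes among 7577 with values; a 13th, the second Il4ra probe set, was blank on all 4 arrays. Each probe set is a group of probes meant for a transcript, though some may also bind related ones. Its signal is given in intensity units on a linear scale.

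The cells were peritoneal macrophages drawn into the cavity by thioglycollate, an irritant, 3 days after injection, from mice of mixed strain, 129/SV with C57BL/6. KO and WT cells alike were plated in 10% serum, had a wash 5 h later and were then held for 24 h in 0.5% serum. No ligand or cytokine is named in the labels. Each genotype had 2 one-colour Affymetrix arrays, 4 in all, and their number limits the precision. How Pparg was deleted, in which cells and over which part of the gene, is not stated in the labels. The labels name no mouse or culture for either array of a genotype, and replicate 2 of each carries a label ending in dup. The p-values below therefore measure only how far these arrays spread, possibly for technical reasons. The Pparg probe set, which encodes the nuclear receptor PPARγ, read 43.0 and 40.6 on the KO arrays and 61.1 and 73.1 on the WT arrays. All 4 values lay under the median of the antisense control probe sets of their array, which ran from 103.8 to 116.0. The log2 fold change was -0.52, with adjusted p = 0.00012 by limma without a filter on dim signals. This check of the labels therefore rests on a dim signal, and whether the probes lie inside the deleted part is not given.

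Cytokine receptors of this class carry Janus kinases (JAKs), which phosphorylate STAT proteins so that these enter the nucleus and switch on target genes. Among the targets are the SOCS genes and Cish, whose proteins bind receptors or kinases and shut the pathway down, a negative feedback loop. In macrophages, interleukin-4 acts mainly through STAT6, interleukin-6 and interleukin-10 through STAT3, and colony-stimulating factors in part through STAT5. SOCS1 is best known for restraining interferon and interleukin-4 signals, SOCS3 for restraining interleukin-6 signals, and CIS and SOCS2 for restraining STAT5-linked receptors.

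SOCS genes are among the targets of STAT proteins, whose activity was not measured here. The DNA just before the start site is shown for both members that passed the test and for Cish, a textbook STAT5 target that did not. RefSeq promoter entries (GRCm38.p6) were found for 8 of the 9 genes, 10 entries in all, and Socs2 had none. The 250 bases before each start were searched on both strands for the STAT site TTCNNNGAA, its form with 1 more N in the spacer, the interferon response motif (GAAA, any 2 bases, GAAA) and the PPAR direct repeat (AGGTCA, any base, AGGTCA). Matches are in capitals, and each sequence runs 5′ to 3′ towards the start of the gene. The windows are chr16:10785537-10785786 on the minus strand for Socs1, chr11:117969367-117969616 on the minus strand for Socs3, and chr9:107296409-107296658 on the plus strand for Cish.
Socs1: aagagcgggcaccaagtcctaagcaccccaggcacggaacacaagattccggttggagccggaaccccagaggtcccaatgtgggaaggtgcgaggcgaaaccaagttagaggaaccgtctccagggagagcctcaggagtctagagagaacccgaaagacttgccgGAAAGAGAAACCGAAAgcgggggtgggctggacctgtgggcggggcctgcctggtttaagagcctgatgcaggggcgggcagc
Socs3: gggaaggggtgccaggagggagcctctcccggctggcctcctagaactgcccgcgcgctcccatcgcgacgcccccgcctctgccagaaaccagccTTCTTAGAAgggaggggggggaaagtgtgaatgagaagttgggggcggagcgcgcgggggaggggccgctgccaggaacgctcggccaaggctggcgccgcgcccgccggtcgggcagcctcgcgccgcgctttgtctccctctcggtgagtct
Cish: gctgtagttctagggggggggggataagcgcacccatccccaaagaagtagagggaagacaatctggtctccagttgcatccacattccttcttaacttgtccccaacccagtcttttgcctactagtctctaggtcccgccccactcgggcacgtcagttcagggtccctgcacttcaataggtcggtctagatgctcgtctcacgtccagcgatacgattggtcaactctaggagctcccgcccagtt

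The Socs1 window held 2 matches of the interferon response motif, GAAAGAGAAA from 83 to 74 bases before the start and GAAACCGAAA from 77 to 68, which share 4 bases. That motif was in 2.98% of the 32851 promoter windows searched. The searched set left out 1 chromosome and sequences outside the numbered, X and Y chromosomes. The Socs3 window held 1 STAT site, TTCTTAGAA, from 154 to 146 bases before the start, a motif found in 7.02% of windows. The Cish window held none of the 4 motifs, and neither did the windows of Stat3, Stat5a, Stat5b, Stat6 and Il4ra. The STAT site with the longer spacer (5.85% of windows) and the PPAR repeat (0.0335%) were in 0 member windows. A match is a description of these letters, not evidence of binding.

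Socs1 and Socs3 fell in KO macrophages, while Cish, Stat3, Stat5a, Stat5b, Stat6 and Il4ra did not pass the test. In bulk RNA, fewer cells of a type and less RNA per cell cannot be told apart. Each log2 fold change is the KO mean minus the WT mean of log2(signal + 16), a scale that understates changes of dim probe sets. The adjusted p comes from limma, with the Benjamini-Hochberg method over 6389 tested probe sets. Of the 12 member probe sets, 11 lay above the filter on dim signals (the 40th percentile, a signal of about 111). Of these 11, 3 were lower past an adjusted p of 0.05, 0 were higher and 8 did not pass; among all tested probe sets 2.54% were lower and 1.02% higher, 3.55% in either direction. With all 4 arrays the tested probe sets past the threshold were 162 lower and 65 higher. They were 124 and 127 when KO replicate 1 was dropped, 285 and 42 for KO replicate 2, 54 and 18 for WT replicate 1, and 48 and 6 for WT replicate 2. By gene, 2 of 8 passed, both lower, against 2.66% lower and 1.06% higher among 5002 tested genes. The KO arrays lay wholly below the WT arrays at 9 of the 12 probe sets, against 24.8% of all probe sets with values, and overlapped them at 3. Among the 11 kept it was 8, against 21.1% of those tested. The median log2 fold change of the 11 was -0.20, against -0.02 over all tested probe sets. Both Socs3 probe sets are among the 3 that passed. The members were chosen with earlier results of these data known, so these comparisons are a description only.

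**Figure D1:**
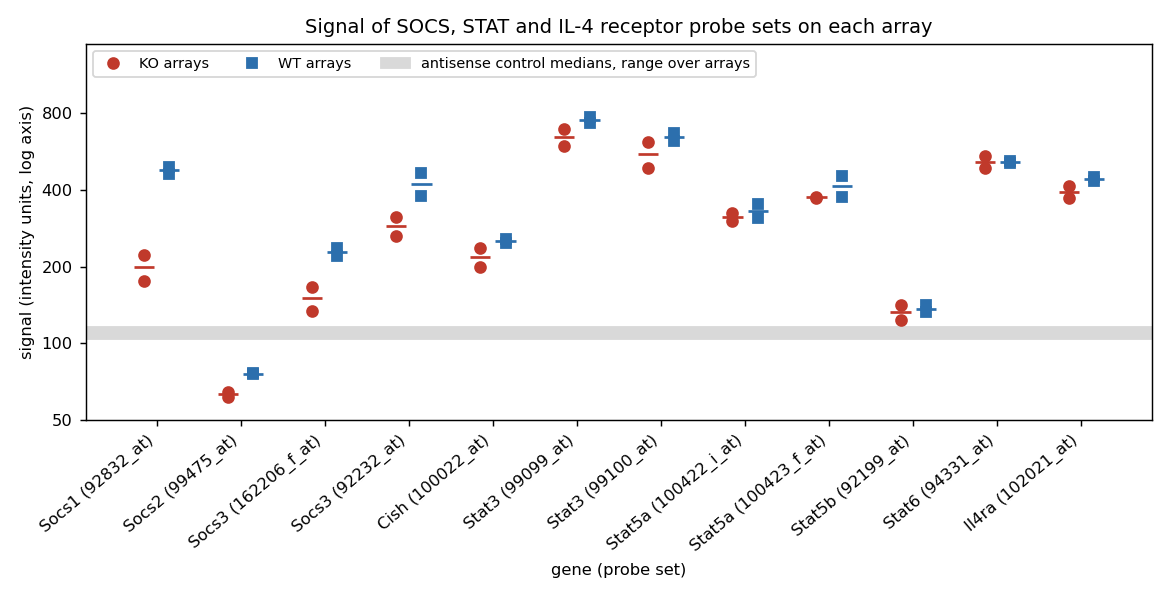
Signal of each member probe set (intensity units, log axis) on the 2 KO arrays (circles) and the 2 WT arrays (squares), with bars at the means and a grey band over the range of antisense control medians. Both KO values of Socs1 (175.5 and 222.9) sit far below both WT values (461.6 and 494.5), and Socs2 lies under the band.

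Among the feedback inhibitors, Socs1 had the lowest log2 fold change. Socs1, whose protein blocks JAK kinases directly, read 175.5 and 222.9 in KO and 461.6 and 494.5 in WT. The higher KO array stayed below the lower WT array. Means were 199 ± 33.5 in KO and 478 ± 23.3 in WT (SD, n = 2 each), which the fit put at 2.31-fold lower in KO (log2 fold change -1.21 with SE 0.13, limma adjusted p = 1.05e-18). This was the 10th lowest log2 fold change of the 6389. With each array left out in turn it ran from -1.37 to -1.05 and passed each time. Such a fit has 1 array in a genotype, and takes its spread from the other genotype's arrays and from probe sets of like brightness.

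Socs3, the feedback inhibitor of receptors that share the gp130 chain, was measured by 2 probe sets. The brighter, here called the first, read 265.0 and 313.9 in KO and 379.7 and 465.0 in WT. The second, whose suffix f marks probes that may also bind related transcripts, read 134.4 and 166.8 in KO and 219.6 and 237.0 in WT. In both, each KO value lay below each WT value. The log2 fold changes were -0.52 (SE 0.13, adjusted p = 0.00334) and -0.56 (SE 0.11, adjusted p = 4.54e-05), a fall of 1.43-fold and 1.47-fold. The first lost its call when KO replicate 1 was left out (-0.40, adjusted p = 0.053), and likewise for WT replicate 1 (-0.66, 0.14) and WT replicate 2 (-0.38, 0.9999). The second lost its call when WT replicate 2 was left out (-0.51, adjusted p = 0.12). The number of member probe sets past the threshold was 1 when WT replicate 2 was dropped, 2 when KO replicate 1 or WT replicate 1 was, and 3 when KO replicate 2 was.

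Cish, which encodes the STAT5-induced inhibitor CIS, read 237.6 and 200.2 in KO and 256.9 and 248.0 in WT. The genotypes did not overlap, but the difference was within the spread that the fit allows (log2 fold change -0.20, 95% interval -0.43 to 0.03, adjusted p = 0.73). Socs2, which restrains growth hormone signalling, read 61.5 and 64.4 in KO and 75.5 and 76.6 in WT. Those signals lay under the antisense control median on all 4 arrays and low among all probe sets, so Socs2 was taken from the fit without the filter (log2 fold change -0.22, adjusted p = 0.42), in which 2.27% of probe sets were lower and 0.836% higher (3.11% together).

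None of the STAT probe sets passed. Stat3, the factor behind interleukin-6 and interleukin-10 responses, was the brightest member. Its first probe set read 596.8 and 695.0 in KO and 735.5 and 773.3 in WT. Its second read 488.7 and 615.7 in KO and 625.2 and 667.7 in WT. Every KO value lay below every WT value of the same probe set, in the second by a narrow margin. The log2 fold changes were -0.22 (95% interval -0.52 to 0.07, adjusted p = 0.86) and -0.23 (-0.52 to 0.06, adjusted p = 0.80). KO replicate 2 exceeded KO replicate 1 by 0.21 and 0.32 on the log2 scale in these sets. The median of that difference over 688 tested probe sets of like brightness was 0.19. After quantile normalization the Stat3 log2 fold changes were -0.19 and -0.20 (limma adjusted p = 0.26 and 0.25). The part of the shift between arrays in the result was not tested.

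Stat5a and Stat5b encode close paralogues that carry growth factor and colony-stimulating factor signals. In the annotation they are neighbours on chromosome 11, with Stat3 next to Stat5a. The dimmer Stat5a probe set read 302.6 and 326.2 in KO and 351.6 and 311.9 in WT, which overlap. The brighter one read 375.6 and 373.6 in KO and 376.9 and 452.4 in WT, with KO just below the lower WT array. Both derive from 1 accession, and the brighter, with suffix f, may also pick up related transcripts, so they are not independent evidence. Their log2 fold changes were -0.07 (95% interval -0.32 to 0.18) and -0.14 (-0.40 to 0.13), each with adjusted p = 0.9997. Stat5b, dimmer at 123.4 and 141.2 in KO and 133.1 and 140.9 in WT, overlapped between genotypes (log2 fold change -0.05, -0.26 to 0.17, adjusted p = 0.9997).

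Stat6 and Il4ra form the interleukin-4 arm. Stat6, the factor that interleukin-4 activates, read 489.4 and 544.0 in KO and 512.4 and 522.3 in WT. The WT values lay inside the KO range, and the log2 fold change was -0.004 (95% interval -0.28 to 0.28, adjusted p = 0.9997), turning to 0.02 after quantile normalization or median centring. Il4ra, the chain shared by the interleukin-4 and interleukin-13 receptors, read 371.3 and 416.8 in KO and 434.9 and 449.5 in WT. KO lay below WT without overlap, by less than the fit's threshold (log2 fold change -0.16, 95% interval -0.43 to 0.11, adjusted p = 0.98).

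**Figure D2:**
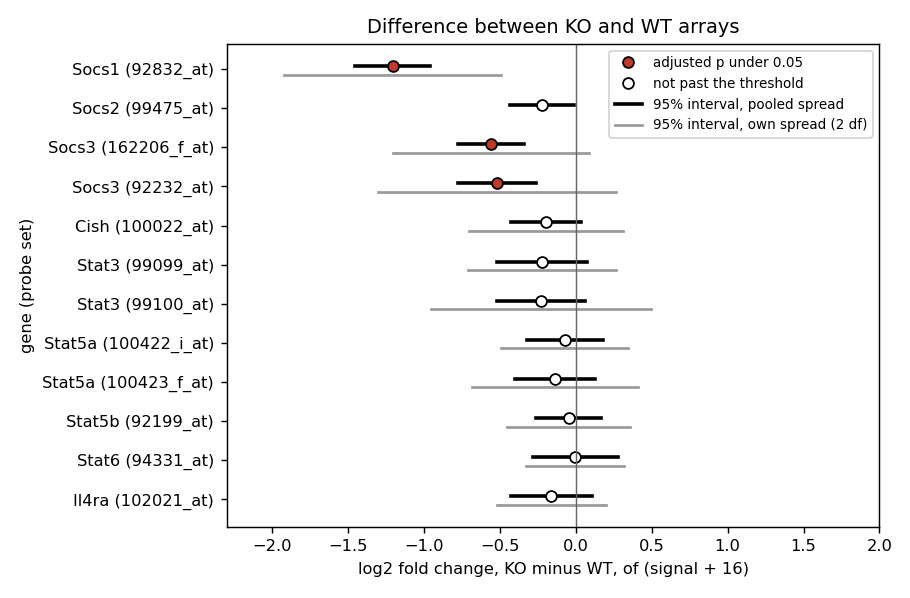
Log2 fold change (KO minus WT) of each member probe set, filled where adjusted p was under 0.05. Black bars are 95% intervals from the pooled spread at each probe set's brightness, and grey bars use each probe set's own spread (2 residual degrees of freedom). For Socs2, below the filter, the black bar is from the fit without the filter and no grey bar is drawn. With the own spread, the Socs1 interval of -1.92 to -0.49 lies below 0 and the intervals of Socs3 include it.

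The size of these intervals rests on how the spread was estimated. The pooled fit gave every probe set the spread typical of its brightness. With each probe set's own spread and no pooling, 0 of 6389 passed after adjustment by limma. The Socs1 interval then ran from -1.92 to -0.49, and the Socs3 intervals from -1.30 to 0.27 and from -1.20 to 0.09. In that fit 6.07% of tested probe sets had an unadjusted p under 0.05, and 4.48% were lower.

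**Figure D3:**
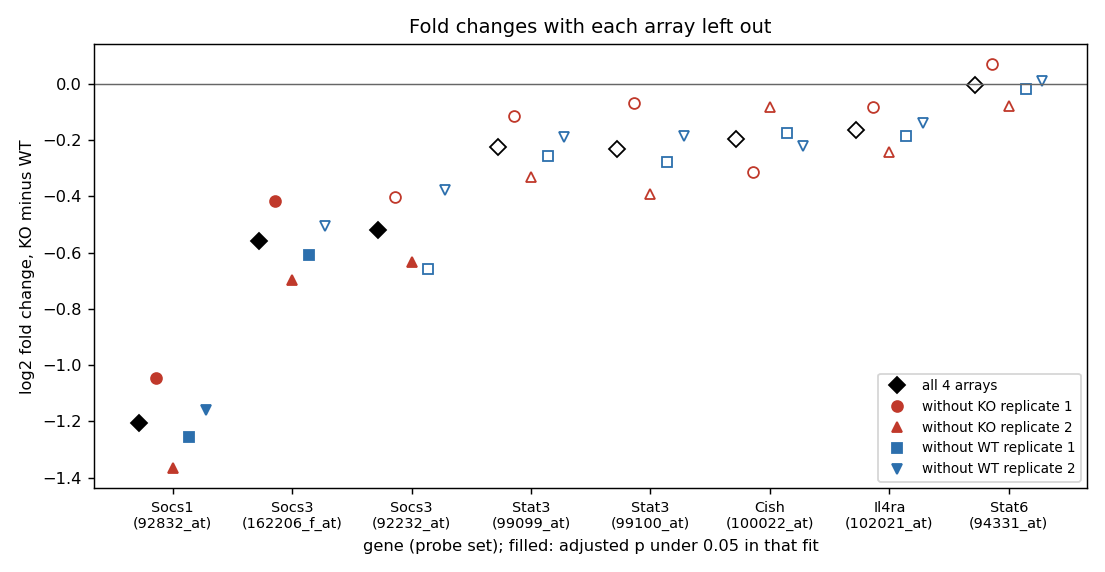
Log2 fold changes (KO minus WT) of 8 member probe sets with all 4 arrays (diamonds) and with each array left out, filled where adjusted p was under 0.05 in that fit. Socs1 stays filled in every fit, the Socs3 sets lose it in some, and Stat6 lies on either side of 0.

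Every member probe set had a negative log2 fold change with the values as deposited, as did 57.9% of tested probe sets. After quantile normalization 10 of the 11 kept were negative, against 45.6% of tested probe sets, and after median centring 10 of 11, against 48.4%. Stat6 was the exception in both.

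Socs1 was also set against the other members within each array, as the log2 difference between the 2 probe sets (the brightest where a gene had 2). Socs1 had the largest fall of the members, so these differences are a description and their separation between genotypes shows nothing further. The Socs1 minus Socs3 difference was -0.55 and -0.47 in KO and 0.27 and 0.09 in WT, a change of -0.69 (KO minus WT). The Socs1 minus Stat3 difference was -1.68 and -1.57 in KO and -0.65 and -0.63 in WT, a change of -0.98. The Socs1 minus Stat6 difference changed by -1.20 and the Socs1 minus Il4ra difference by -1.04. An exact permutation test with 2 arrays a genotype cannot go below p = 0.333 (two-sided, 6 assignments), so it cannot tell Socs1 from any of the 8 other members.

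The genes whose pattern over the 4 arrays was closest to that of Socs1 were found by Euclidean distance between centred log2 values, among 5002 genes. They were Ralgds, an exchange factor for Ral GTPases (distance 0.06, 579 and 737 in KO, 1510 and 1667 in WT), the class I-like gene H2-M2 (0.12), Wars, the tryptophanyl-tRNA synthetase (0.15), Slc7a2, a cationic amino acid transporter (0.19), and Ifit2, an interferon-induced gene (0.20). Their log2 fold changes ran from -1.26 (Ralgds) to -1.06 (Slc7a2), each past the threshold. Falls of that size follow from choosing genes close to Socs1. No member rose, so Stat6, with the highest fold change among members, was the other anchor, and Apba3, Gltp, Cstb, Desi1 and Ext2 lay nearest to it, at distances of 0.006 to 0.017. The distance covers 4 arrays only.

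The rest of the pathway was described from lists of 125 genes, 63 of them tested. Of the 63, 5 were lower, 2 higher and 56 did not pass, with a median log2 fold change of -0.06, against -0.02 over the 5002 tested genes, of which 2.66% were lower and 1.06% higher. After quantile normalization 7 were lower and 6 higher. Without WT replicate 1, 1 was lower and 2 higher, and without WT replicate 2, 1 was lower and 1 higher.

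Upstream of the STATs, 1 of 4 Janus kinases fell. Jak2, the kinase of the interferon-gamma and growth factor receptors, read 104.0 and 129.7 in KO and 177.6 and 181.4 in WT (log2 fold change -0.56, SE 0.11, adjusted p = 2.63e-05), with 1 KO value under the antisense control median. It also passed with any 1 array left out, under the same assumption about the lone array. Jak1 read 622 and 710 in KO and 749 and 780 in WT (-0.20, adjusted p = 0.93), and Jak3 (-0.15) and Tyk2 (-0.09) did not pass either.

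Of 19 tested receptor chains other than Il4ra, 1 fell, 0 rose and 18 did not pass (median 0.04). The one that fell was Il15ra, the alpha chain for interleukin-15, at 232.1 and 263.3 in KO and 377.5 and 360.0 in WT (-0.55, adjusted p = 0.00072). Its adjusted p was 0.39 when WT replicate 1 was left out and 0.24 when WT replicate 2 was. Il13ra1, a partner chain of Il4ra chosen after its values were seen, read 102.7 and 119.0 in KO and 129.1 and 148.8 in WT without overlap (-0.29, adjusted p = 0.17). Of 12 ligand genes with values, 9 lay under the antisense control median on every array, among them Il4, Ifng and Ifnb1. The 2 tested, Il13 and Csf3, did not pass (Il13 at -0.09, adjusted p = 0.9997).

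Other negative regulators were lower in part: of 7 tested, 2 fell, 0 rose and 5 did not pass (median -0.13). Usp18, which blocks the type I interferon receptor, read 216.2 and 263.5 in KO and 324.2 and 336.4 in WT (-0.44, adjusted p = 0.012). Ptpn6, the phosphatase SHP-1, read 551.8 and 665.7 in KO and 892.4 and 828.1 in WT (-0.49, adjusted p = 0.033). Both missed the threshold without either WT array or without KO replicate 1 (adjusted p from 0.17 to 0.9999), and Ptpn6 also after median centring (0.11). Socs5, the 1 other SOCS gene with values, read 230.3 and 224.0 in KO and 215.6 and 218.6 in WT (0.06, adjusted p = 0.9997). Of 4 tested genes listed as partners of the SOCS box in ubiquitin ligases 0 passed, Cul2 having the smallest p (-0.31, limma adjusted p = 0.18). Cul5 and Rbx1, also listed, had no values. Stat4, a lymphoid STAT, lay under the antisense control median throughout (69.6 and 69.3 in KO, 70.9 and 78.4 in WT). Stat2 had no probe set with values assigned to it alone.

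Targets of STAT6, STAT3 and STAT5 were listed by the cytokine that induces them. Of 8 targets of interleukin-4 and STAT6, 2 rose, 0 fell and 6 did not pass (median 0.02). Arg1, arginase 1, read 395 and 483 in KO and 258 and 206 in WT (0.88, adjusted p = 9.68e-10; 0.11 without WT replicate 2), and Mrc1, the mannose receptor, read 174 and 205 in KO and 93.0 and 94.8 in WT (0.90, adjusted p = 1.04e-13). Both WT values of Mrc1 were under the antisense control median and under the filter signal of about 111. Mrc1 was thus kept by the filter only through its higher KO values, and its rise is a description only. Of 14 STAT3 targets 1 fell and 13 did not pass (median 0.03). The one that fell was Hp, haptoglobin, at 1155 and 1483 in KO and 1843 and 1961 in WT (-0.53, adjusted p = 0.026). Its adjusted p was 0.14 to 0.9999 when KO replicate 1 or either WT array was left out, and 0.096 after median centring. Of 6 STAT5 targets 0 passed (median -0.10), Cdkn1a having the smallest p (-0.25, adjusted p = 0.69). The STAT3 and STAT5 lists share Pim1, Bcl6 and Myc, and differences between their medians were not tested.

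**Figure D4:**
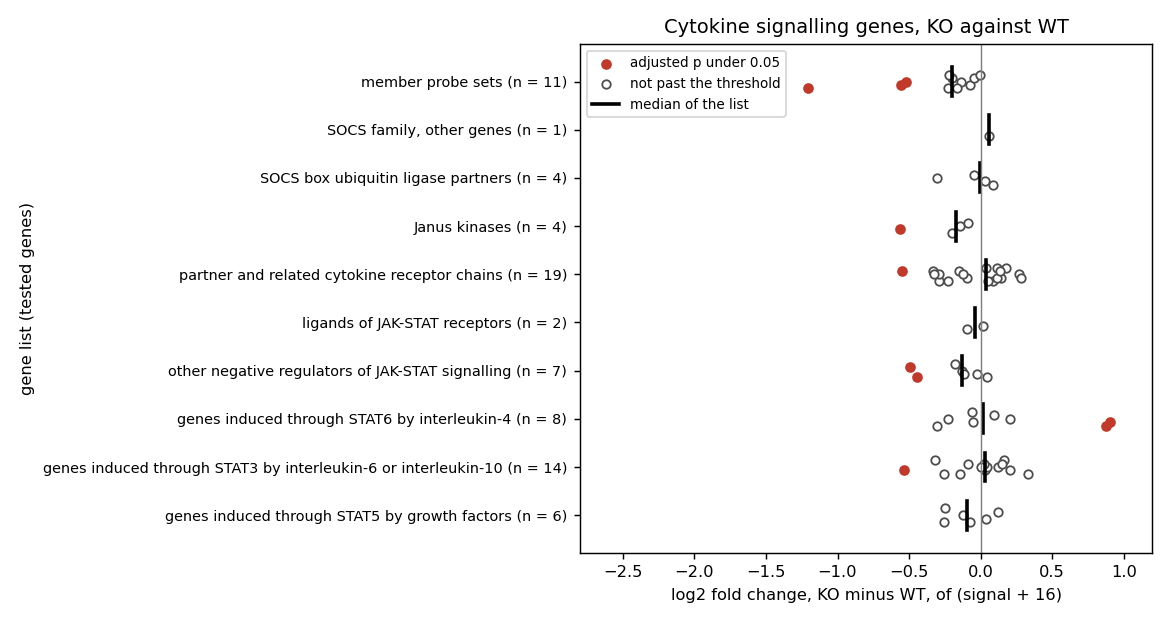
Log2 fold change (KO minus WT) of the 11 kept member probe sets and of the tested genes of each pathway list, with the list median as a black bar and filled points past an adjusted p of 0.05. The medians of these lists lie between -0.20 and 0.06, and Mrc1 (0.90) and Arg1 (0.88) are the filled points right of 0.

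Macrophage markers were strong, with 11 of 11 measured above the antisense control median on at least 1 array and Cd68 at 6210 and 6956 in KO and 6355 and 6414 in WT. Of the 11, 1 fell (Mertk, 134.7 and 150.5 in KO and 225.6 and 233.4 in WT), 0 rose and 10 did not pass. For these and the other marker lists, the share over the 5002 tested genes was 2.66% lower and 1.06% higher. The summed signal of the 11 was 27690 and 31590 in KO and 28220 and 28740 in WT. Of 8 T and NK cell markers with values, 6 lay under the antisense control median on every array, and their sum was 727 and 669 in KO and 701 and 749 in WT. The 7 B cell markers summed to 1021 and 1024 in KO and 979 and 1015 in WT. The 8 neutrophil markers summed to 1070 and 1073 in KO and 1251 and 1313 in WT. In that list S100a8, which activated macrophages also express, fell (-0.58, adjusted p = 0.0015). Camp read 212.6 and 197.6 in KO and 213.6 and 214.3 in WT, and Elane 111.8 and 113.9 in KO and 126.1 and 124.1 in WT. Both lay above the antisense control median on all 4 arrays, with KO below WT, and neither passed (-0.06 and -0.13). S100a9, Ltf, Mpo and Cxcr2 lay under that median on every array, and Ngp did so on 2. The 8 eosinophil, mast cell and basophil markers summed to 913 and 855 in KO and 864 and 868 in WT, and the 5 dendritic cell markers to 540 and 514 in KO and 585 and 533 in WT. The 10 fibroblast and mesothelial markers summed to 2669 and 3013 in KO and 2169 and 2153 in WT. Of the 5 tested, Dcn rose (0.75, adjusted p = 6.31e-05), 0 fell and 4 did not pass. Of these 5, 0 had a negative log2 fold change, and their median was 0.29. The part of these cells in the fall of Socs1 and Socs3 was not tested.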

How the data were processed

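The series has 2 KO and 2 WT samples with 1 array each, and genotype and replicate number came from the titles. Whether the 2 samples of a genotype were separate RNA preparations is not stated in the labels. Judged by its values, the table the authors deposited gives a linear intensity for each probe set on each array; how probes were summarised, corrected for background and scaled was not given. Of 12488 rows, 1780 were blank on all 4 arrays. Leaving out 59 control rows gave 10649 probe sets, 9389 with 1 gene in the platform annotation, 341 with several and 919 with none. Of the 9389, 9377 matched the GRCm38.p6 gene table by gene identifier. No build is named for the arrays, so coordinates are given for RefSeq promoters only.

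Array medians differed by less than 0.1 on the log2(signal + 16) scale, so values were used as deposited. Array medians of signal ran from 136.7 to 142.0. Those brighter on average than the 40th percentile were tested with limma 3.58.1 in R 4.3.3 (lmFit, eBayes with an intensity trend), two-sided, at an adjusted p under 0.05. limma's prior had infinite degrees of freedom, which gives a probe set the pooled spread at its brightness. The median of the 12 antisense control probe sets of an array served as a mark of dim signal. Listed genes stand by their brightest kept probe set. Named genes are every member, Pparg, the listed kinases, STATs and SOCS genes, and per list the up to 4 members past the threshold with the smallest p, or the 1 with the smallest p; Il13ra1, the ligand genes other than Il13, Cd68 and the neutrophil markers other than S100a8 were picked with their values in view. The fit was also tested on simulated data. Python 3.11.15 with matplotlib 3.10.9 drew the plots. Besides the target lists described, 1 other is not reported here. The members and lists were chosen with earlier results of these data known. Alternatives were other normalizations, filters, pseudocounts, variance models and thresholds, the replicate number as a block, and each array left out.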

Additional observations from a re-analysis of the deposited data

How the results depend on the processing

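Of the 11 kept member probe sets 3 passed. The number was 0 with no variance moderation, 1 when a 1.5-fold change was also required, 5 with quantile normalization and the replicate block together (chosen after seeing the data), and 1 to 3 with single arrays left out. Over all tested probe sets 227 passed (162 lower, 65 higher). Quantile normalization gave 419 (249 lower, 170 higher), so that 59.4% were lower, against 71.4%. No moderation gave 0 (388 at an unadjusted p under 0.05), the 1.5-fold rule 90, and leaving out single arrays 54 to 327, with 72 without WT replicate 1 (54 lower, 18 higher) and 54 without WT replicate 2 (48 lower, 6 higher). Without KO replicate 1 it was 251 (124 lower, 127 higher, 49.4% lower), and without KO replicate 2 it was 327 (285 lower, 42 higher, 87.2% lower). Of the pathway genes 7 passed (5 lower, 2 higher), against 13 with quantile normalization (7 lower, 6 higher), 0 with no moderation, 2 with the 1.5-fold rule and 2 to 10 with single arrays left out. Same-numbered KO and WT arrays deviated together (r = 0.42 across probe sets), but the labels tie them by number only. With the replicate block 480 probe sets passed (338 lower, 142 higher), 15 pathway genes and 3 member probe sets. Quantile normalization with that block gave 918 (460 lower, 458 higher), 20 pathway genes and both Stat3 sets (-0.19, adjusted p = 0.025, and -0.20, adjusted p = 0.017). Socs1 ran from -1.37 to -1.05 over 17 alternatives and missed the threshold with no moderation (adjusted p = 0.78). Both Socs3 sets also missed it with no moderation (limma adjusted p = 0.87 for the brighter and 0.84 for the other) and under the 1.5-fold rule. Dim signal limits Socs2 and Pparg.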

Other observations

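A further listed gene, Myc, a growth regulator, lay below the filter on dim signals and passed in the fit without it, in which limma called 3.11% of probe sets. Myc read 46.8 and 61.2 in KO and 35.7 and 35.8 in WT (log2 fold change 0.43, adjusted p = 0.0036). All 4 values lay under the antisense control median.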
